A study of Mus musculus with 9 samples.

Results

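Progenitors of the E12.5 mouse cortex leave G1 through a small set of proteins, and the transcripts of 10 of these genes were followed across the genotypes of the series. They are the D cyclins Ccnd1, Ccnd2 and Ccnd3, the kinases Cdk4 and Cdk6, the Cip/Kip inhibitors Cdkn1b and Cdkn1c, and the pocket proteins Rb1, Rbl1 and Rbl2. The genes were matched by symbol to the Ensembl identifiers of the count table, which gave all 10 of 57010 genes, and all 10 passed the filter of more than 10 reads in every embryo that 13680 genes passed. Each library held the cortex of a single embryo, and each of the genotypes Ctrl, Cnot3 cKO and Cnot3;Trp53 dcKO was represented by 3 of them. Ctrl embryos are labelled WT, and which floxed or Cre alleles they carried is not given in the sources used here. In both mutants Emx1-Cre deletes the floxed alleles in RGCs of the dorsal telencephalon and in the cells born from them, so meninges, vessels and blood in the same tissue keep the genes. The dcKO genotype carries floxed alleles of Trp53 in addition to those of Cnot3. Cnot3 encodes a subunit of the CCR4-NOT complex, which shortens the poly(A) tail of mRNAs, and Trp53 encodes p53.

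D cyclins are made in response to mitogens and bind CDK4 or CDK6, and the active kinases phosphorylate the pocket proteins. Unphosphorylated pocket proteins hold E2F factors on the promoters of S phase genes in a silent state, so their phosphorylation opens the way into S phase. The Cip/Kip proteins p27 (Cdkn1b) and p57 (Cdkn1c) bind the cyclin-CDK complexes and favor cell cycle exit. In the developing cortex Ccnd1 and Ccnd2 are known as the D cyclins of RGCs and of dividing progenitors in general, and the length of G1 is known to increase as neurogenesis proceeds.

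Read depth ran from 21193798 to 45073349 counted reads per embryo, and levels are given in CPM, the reads of a gene scaled to the same library size in every embryo. Cnot3 stood at 13.5% to 16.1% of the Ctrl mean in cKO, and at 6.82%, 44.9% and 17.7% of it in dcKO replicates 1, 2 and 3. Trp53 stood at 69.9% to 71.1% of the Ctrl mean in cKO, where it is not deleted, and at 6.41%, 46.9% and 8.76% in the same dcKO embryos. The library labelled dcKO replicate 2 thus kept far more of both deleted transcripts than the other dcKO embryos, in part against its label, and it is called dcKO replicate 2 here after that label alone. Of 8 markers of the subpallium, 5 were highest in this library, with 47 reads of Dlx1, 88 of Dlx2, 96 of Gsx2, 80 of Gad2 and 18 of Nkx2-1 against 0 to 8 reads in any other library. Gad1 and Dlx5 had 0 and 1 reads in it, and Lhx6, with 0.690 CPM, was lower there than in any other library. Lhx6 had 0.843 to 1.30 CPM in Ctrl and was higher in all 3 cKO embryos, at 1.81 to 4.46 CPM. All 9 markers of radial glia, among them Sox2, Pax6 and Hes5, were detected in every library, and their summed level spanned 2937 to 3444 CPM in Ctrl embryos, 2779 to 3373 CPM in cKO embryos and 2858 to 3279 CPM in dcKO embryos. Vim, the most abundant of the 9, stood at 1659 to 2030 CPM in cKO, above the 1159 to 1496 CPM of Ctrl. At an unadjusted p under 0.05, 3 of the 9 (Hes5, Notch1 and Nes) were lower in cKO and 2 (Notch1 and Nes) in dcKO, against 11.7% and 11.2% of all tested genes. In cKO the 3 had log2 fold changes of -1.83, -1.71 and -0.68 and adjusted p of 0.0694, 0.0806 and 0.0980 in edgeR. A correction for GC content, described below, brought them to -0.88, -1.25 and -0.39 in cKO, and brought Nes in dcKO from -0.58 to 0.03. The 6 markers of the cortical hem and choroid plexus summed to between 4.11 and 17.1 CPM in Ctrl, where Ttr had 0 reads in all 3 embryos, and to between 31.2 and 142 CPM in the 6 mutants. Summed markers of neurons overlapped between the genotypes (965 to 1991 CPM), as did those of intermediate progenitors (338 to 678 CPM). Single markers in these sums differed, and in cKO 4 of 10 neuron markers (Tubb3, Dcx, Map2 and Bcl11b) and 3 of 6 of intermediate progenitors (Neurog1, Btg2 and Gadd45g) lay below every Ctrl embryo, against 28.0% of all tested genes. Gadd45g had a log2 fold change of -2.56 in cKO (adjusted p = 0.0643 in edgeR, 0.00254 in DESeq2), and Neurod6 had 0.82 (adjusted p = 0.118). With the GC correction these were -1.74 and 0.69 (adjusted p = 0.0339 and 0.212 in edgeR). The 6 markers of the meninges summed to 324 to 694 CPM in the mutants against 779.9 to 858 CPM in Ctrl, which came from the collagens Col1a1, Col1a2 and Col3a1, while Foxc1, Dcn and Lum overlapped with Ctrl in both mutants. Summed markers of endothelium, microglia and erythroid cells were lower in dcKO than in Ctrl (116 to 133 against 189 to 247 CPM, 12.9 to 25.7 against 28.7 to 37.3 CPM, and 4099 to 5912 against 6083 to 9170.4 CPM). Taken singly, 4 of 5 endothelial markers lay below every Ctrl embryo in dcKO, and Cldn5 overlapped. For microglia 2 of 5 did and for erythroid cells 0 of 5, against 11.2% of all tested genes. P2ry12, of the microglia list, stood at 2.80 CPM in dcKO replicate 1, above every Ctrl embryo. Results for the 10 genes in dcKO are therefore given with and without replicate 2, and the part of these cell types in them was not tested. In bulk tissue, fewer cells of a type and less RNA per cell cannot be told apart.

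Among the 10 genes, Cdk4 and Ccnd2 had the most transcript in Ctrl when reads were divided by the summed length of all annotated exons. On this scale Cdk4 reached 368 ± 10.6 CPM per kb (SD, n = 3) and Ccnd2 292 ± 11.5 CPM per kb. Ccnd1 followed at 48.1 ± 3.68, Cdkn1b at 19.3 ± 2.94, Cdkn1c at 16.9 ± 3.89, Rbl1 at 12.1 ± 0.247 and Ccnd3 at 10.1 ± 2.24 CPM per kb. Rb1 stood at 7.81 ± 0.169, Cdk6 at 4.77 ± 0.421 and Rbl2 at 2.86 ± 0.175 CPM per kb. The ranges of Cdkn1b and Cdkn1c overlapped, as did those of Rbl1 and Ccnd3 and those of Ccnd3 and Rb1, whereas every other pair of neighbours in this order was separate in the 3 Ctrl embryos. The summed exons of Cdk6 and Ccnd3 are long, at 13989 and 8775 bases, whereas those of Cdk4 have 3249.

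Both abundant D cyclins were lower in every cKO cortex than in any Ctrl cortex. Ccnd2 (ENSMUSG00000000184.13, chr6:127125162-127152193 on the minus strand of GRCm38) stood at 2803, 2627 and 2823 CPM in Ctrl and at 1249.9, 979.8 and 1211 CPM in cKO. The 3 cKO values were 45.4%, 35.6% and 44.0% of the Ctrl mean and lay far below all Ctrl values. edgeR's quasi-likelihood test over 9 embryos gave a log2 fold change of -1.26 with a standard error of 0.361 and an adjusted p of 0.0692, which missed the threshold of 0.05. A two-sided exact permutation test between the 3 embryos of each genotype gave p = 0.1, the smallest this design allows, for Ccnd2 and for each other member whose groups did not overlap.

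Ccnd1 (ENSMUSG00000070348.6, chr7:144929931-144939925, minus strand) followed Ccnd2 closely. It stood at 245, 210.3 and 224 CPM in Ctrl and at 97.9, 110.0 and 89.3 CPM in cKO, again with no overlap. In edgeR Ccnd1 had a log2 fold change of -1.19 with a standard error of 0.373 and an adjusted p of 0.0827. In cKO neither gene paired an adjusted p under 0.05 with a change above 2-fold under RLE factors or a replicate block. The same held with any single Ctrl or cKO embryo left out. With the GC correction described below, Ccnd1 missed the threshold at 0.0543 and Ccnd2 passed it at 0.0271. Both genes passed it in some other fits. In edgeR on the 6 Ctrl and cKO embryos alone the adjusted p was 3.76e-05 for Ccnd1 and 4.05e-05 for Ccnd2, and in the 9-embryo model without dcKO replicate 2 it was 0.00444 and 0.00313. With all 9 embryos kept, DESeq2 gave adjusted p of 0.0216 for Ccnd1 and 0.00938 for Ccnd2, and edgeR on every gene with a read gave 0.0247 and 0.0171.

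In dcKO both cyclins were low in 2 of the 3 embryos and at the Ctrl level in the remaining one. Ccnd2 stood at 1029, 2814 and 1059 CPM in dcKO replicates 1, 2 and 3, and Ccnd1 at 69.5, 236 and 97.4 CPM. Replicate 2, the library with the most remaining Cnot3, thus held 102% of the Ctrl mean of Ccnd2 and 104% of that of Ccnd1, while the other dcKO embryos lay between 30.7% and 43.0% for both genes. Over all 3 dcKO embryos edgeR gave a log2 fold change of -0.75 for Ccnd1 (standard error 0.369, adjusted p = 0.202) and of -0.75 for Ccnd2 (standard error 0.357, adjusted p = 0.191). Without dcKO replicate 2 the values were -1.44 for Ccnd1 and -1.40 for Ccnd2, with adjusted p of 0.00354 and 0.00284. Without dcKO replicate 1 they were -0.44 and -0.51, and without dcKO replicate 3 -0.57 and -0.52, none with an adjusted p under 0.05. Whether the remaining Cnot3 of that embryo accounts for its cyclin levels was not tested.

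Ccnd3 (ENSMUSG00000034165.17, chr17:47505051-47599691, plus strand), the least abundant D cyclin here, had another pattern. It stood at 108, 89.3 and 68.6 CPM in Ctrl, at 38.0, 55.3 and 44.1 CPM in cKO and at 21.6, 26.9 and 74.7 CPM in dcKO. The cKO values lay below all Ctrl values, and in dcKO it was replicate 3, not replicate 2, that reached the Ctrl range. Fitted by edgeR, Ccnd3 had a log2 fold change of -0.95 in cKO (SE 0.417, adjusted p = 0.177) and of -1.11 in dcKO (SE 0.419, adjusted p = 0.117). With the GC correction described below these were -0.38 and -0.47 (adjusted p = 0.0801 and 0.0667). With the 6 embryos of the cKO comparison alone the adjusted p of Ccnd3 was 0.00156, and with the 6 embryos of the dcKO comparison alone it was 0.247. Leaving out dcKO replicate 3, the dcKO embryo in the Ctrl range, gave -1.87 for dcKO with an adjusted p of 0.000339. That removes the value against the fall, although Cnot3 and Trp53 were low in this embryo (17.7% and 8.76% of the Ctrl mean). In that fit 23.7% of all tested genes were called, which applies to each dcKO value without replicate 3 below. Without dcKO replicate 2 the Ccnd3 value was -0.88 with an adjusted p of 0.199.

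**Figure D1:**
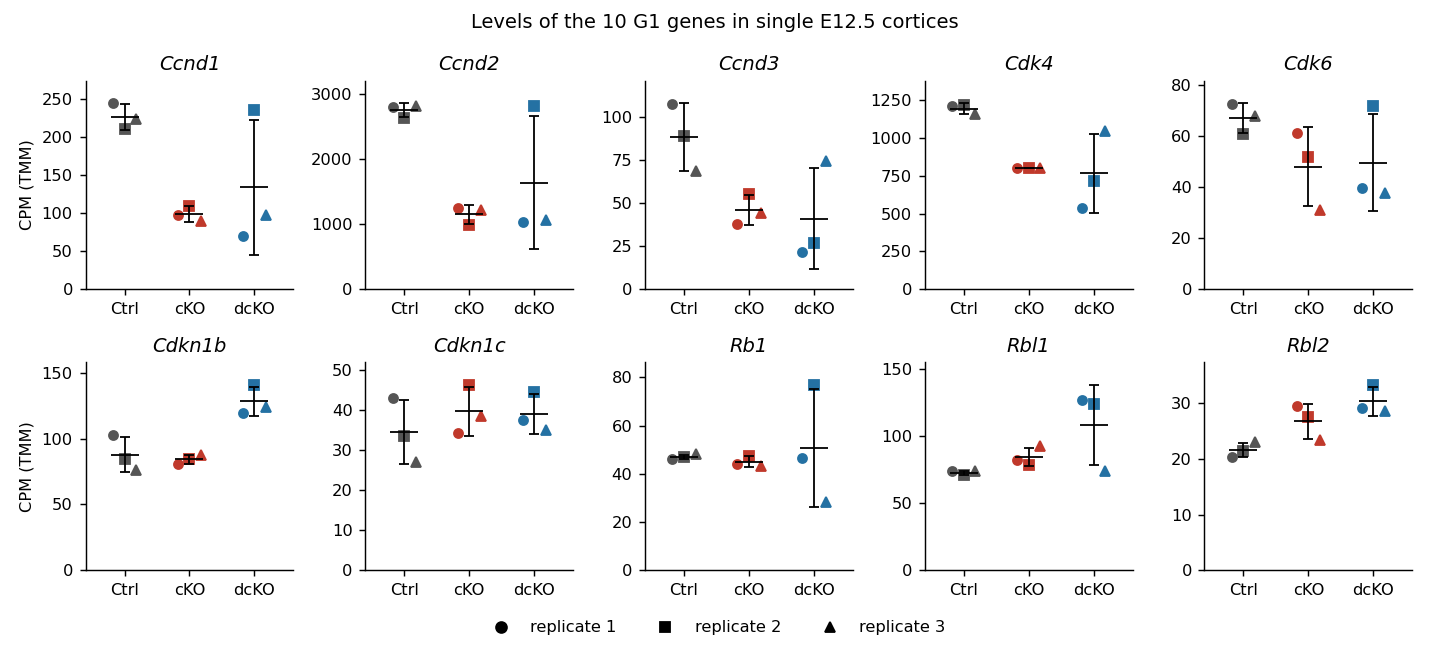
Levels of the 10 genes in each embryo, in CPM with TMM factors (y axis from 0), by genotype; circles, squares and triangles are replicates 1, 2 and 3 of each genotype, which are different animals, and black bars give the mean ± SD (n = 3). Ccnd1, Ccnd2, Ccnd3 and Cdk4 lie lower in all 3 cKO embryos than in any Ctrl embryo, and dcKO replicate 2 (blue square) lies at the Ctrl level for Ccnd1, Ccnd2 and Cdk6.

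Cdk4, the catalytic partner with the most transcript, was lower in all 6 mutant cortices than in any Ctrl cortex. Cdk4 (ENSMUSG00000006728.13, chr10:127063534-127067920, plus strand) stood at 1212, 1221 and 1157 CPM in Ctrl and at 799.9, 802 and 802 CPM in cKO, which is 67.0% of the Ctrl mean with almost no spread. It stood at 534, 716 and 1049 CPM in dcKO, all below the lowest Ctrl embryo, with replicate 3 nearest to it. For Cdk4 edgeR estimated a log2 fold change of -0.58 for cKO (SE 0.231, adjusted p = 0.144) and of -0.64 for dcKO (SE 0.232, adjusted p = 0.107). For Cdk4 in cKO, edgeR on the 6 embryos compared gave an adjusted p of 0.000233, and the 9-embryo model without dcKO replicate 3 gave 0.0114. For cKO, DESeq2 gave 0.0835, the 9-embryo model without dcKO replicate 2 gave 0.0951 and the GC correction described below gave 0.0632. In dcKO, edgeR on the 6 embryos compared gave 0.249 and DESeq2 gave 0.0417. Without dcKO replicate 3, the dcKO embryo nearest to Ctrl, edgeR gave 0.000907 with a log2 fold change of -0.94. Cdk4 had -0.60 and an adjusted p of 0.126 without dcKO replicate 2. Each of these changes stayed under the size limit of 1.

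The 250 bases before the RefSeq start of Cdk4 are shown because they hold 4 copies of the E-box CACGTG, the sequence that MYC-type factors bind, at distances of -172, -118, -98 and -11 bases from the start. They span chr10:127063285-127063534 on the plus strand of GRCm38.p6, from RefSeq, and capitals mark the E-boxes, which read the same on both strands. Of the 12649 such windows of tested genes, 8.32% hold at least 1 copy and 0.0237% hold at least 4. A window was given for 6 of the 10 genes (Ccnd3 with a pair of them), and the windows of Ccnd1, Ccnd2, Cdkn1c and Rb1 were not analysed here. Cdk6 had 1 copy, at -220, and Ccnd3, Cdkn1b, Rbl1 and Rbl2 had none.
Cdk4 upstream: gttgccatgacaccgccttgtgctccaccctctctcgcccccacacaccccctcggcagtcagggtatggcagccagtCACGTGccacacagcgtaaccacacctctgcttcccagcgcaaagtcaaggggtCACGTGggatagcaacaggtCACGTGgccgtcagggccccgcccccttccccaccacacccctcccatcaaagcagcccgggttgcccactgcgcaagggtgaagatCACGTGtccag

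Cdk6 (ENSMUSG00000040274.12, chr5:3341485-3531008, plus strand), the other kinase that D cyclins activate, overlapped between the genotypes as counted. It stood at 72.2, 60.5 and 67.6 CPM in Ctrl, at 60.9, 51.8 and 30.8 CPM in cKO and at 39.5, 71.5 and 37.5 CPM in dcKO. The cKO values reached up to the lowest Ctrl embryo, and dcKO replicate 2 lay within the Ctrl range. Cdk6 had a log2 fold change of -0.48 in cKO (95% interval -1.16 to 0.20, adjusted p = 0.336 in edgeR, and -0.69 and -0.26 without cKO replicates 1 and 3) and -0.43 in dcKO (-1.11 to 0.24, adjusted p = 0.362). Without dcKO replicate 2 its value in dcKO was -0.79 with an adjusted p of 0.0683, and without dcKO replicate 3 it was -0.27 with an adjusted p of 0.472. With the GC correction described below, Cdk6 lay below the Ctrl range in all 6 mutants, at 30.2 to 60.8 CPM in cKO and 33.1 to 55.2 CPM in dcKO against 68.6 to 80.2 CPM in Ctrl. The log2 fold changes were then -0.62 and -0.75 (adjusted p = 0.108 and 0.0909). With that correction and without dcKO replicate 2 they were -0.61 and -0.95 (adjusted p = 0.0478 and 0.0132 in edgeR). Cdk4 exceeded Cdk6 in every embryo, by 72.2 to 86.9 times per kb of exon in Ctrl, 56.6 to 112 times in cKO and 43.1 to 121 times in dcKO, with overlapping ranges. With the GC correction this ratio was higher in dcKO (71.6 to 89.9) than in Ctrl (57.0 to 68.2).

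Of the Cip/Kip inhibitors, Cdkn1b lay above Ctrl in dcKO as counted. Cdkn1b (ENSMUSG00000003031.15, chr6:134920401-134925513, plus strand), which encodes p27, stood at 102, 84.2 and 76.4 CPM in Ctrl and at 80.9, 84.4 and 87.7 CPM in cKO, within the Ctrl range. In dcKO it stood at 119.6, 141 and 124 CPM, above every Ctrl and every cKO embryo. Its log2 fold change came to -0.06 in cKO (95% interval -0.41 to 0.30, adjusted p = 0.846) and to 0.55 in dcKO (0.19 to 0.90, adjusted p = 0.0695 in edgeR). DESeq2 gave an adjusted p of 0.0325 in dcKO, edgeR without dcKO replicate 3 gave 0.00973, and edgeR on the 6 Ctrl and dcKO embryos alone gave 0.230. The dcKO value without replicate 2 was 0.47 with an adjusted p of 0.0603, short of the threshold. Between dcKO and cKO the log2 difference of Cdkn1b was 0.60 with a standard error of 0.161, with an unadjusted p of 0.00367 and an adjusted p of 0.762 in edgeR. After a correction for GC content, described below, the dcKO values of Cdkn1b were 96.9, 98.3 and 149.9 CPM against 84.3 to 115 CPM in Ctrl, and the groups overlapped.

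Cdkn1c (ENSMUSG00000037664.14, chr7:143458339-143461050, minus strand), which encodes p57 and is expressed from the maternal allele, overlapped between all genotypes as counted, but not between cKO and Ctrl with the GC correction described below. It stood at 42.9, 33.5 and 27.1 CPM in Ctrl, at 34.1, 46.3 and 38.5 CPM in cKO and at 37.6, 44.5 and 34.9 CPM in dcKO. For Cdkn1c edgeR estimated 0.20 on the log2 scale for cKO (95% interval -0.29 to 0.70, adjusted p = 0.591) and 0.18 in dcKO (-0.32 to 0.67, adjusted p = 0.610), and without dcKO replicate 2 the dcKO value was 0.073 with an adjusted p of 0.846. The cKO value was 0.39 without Ctrl replicate 1, 0.054 without Ctrl replicate 3 and 0.075 without cKO replicate 2, and the dcKO value was 0.37 and 0.031 without the same Ctrl embryos.

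Of the pocket proteins as counted, Rb1 overlapped with Ctrl in both mutants and Rbl2 lay above Ctrl in both. Rb1 (ENSMUSG00000022105.7, chr14:73183673-73325822, minus strand) stood at 46.0, 46.9 and 48.1 CPM in Ctrl and at 44.2, 47.5 and 43.3 CPM in cKO, and its log2 fold change in cKO was -0.06 (95% interval -0.72 to 0.60, adjusted p = 0.911 in edgeR). Its dcKO values were wide apart, at 46.7, 76.9 and 28.5 CPM, with a log2 fold change of 0.11 and an adjusted p of 0.823. Leaving out dcKO replicate 2 turned the sign of Rb1 in dcKO, to a log2 fold change of -0.32 with an adjusted p of 0.310. With the GC correction described below, Rb1 lay below every Ctrl embryo in both mutants, with log2 fold changes of -0.19 and -0.39 (adjusted p = 0.373 and 0.119). With that correction and without dcKO replicate 2 they were -0.18 and -0.54 (adjusted p = 0.172 and 0.00420 in edgeR).

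Rbl1 (ENSMUSG00000027641.14, chr2:157145893-157204534, minus strand), which encodes p107, stood at 73.7, 71.1 and 73.6 CPM in Ctrl, at 82.2, 78.7 and 92.2 CPM in cKO and at 127, 124 and 73.6 CPM in dcKO. The cKO values lay just above the Ctrl range, whereas dcKO replicates 1 and 2 lay far above it and replicate 3 within it. Rbl1 had a log2 fold change of 0.21 in cKO (SE 0.210, adjusted p = 0.542 in edgeR) and of 0.57 in dcKO (SE 0.210, adjusted p = 0.111). Without dcKO replicate 3, the embryo within the Ctrl range, the dcKO value was 0.78 with an adjusted p of 0.000700. Without dcKO replicate 2 it was 0.46 with an adjusted p of 0.158.

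Rbl2 (ENSMUSG00000031666.16, chr8:91070057-91123844, plus strand), which encodes p130, was above the Ctrl range in all 6 mutants as counted. It stood at 20.4, 21.4 and 23.0 CPM in Ctrl, at 29.5, 27.5 and 23.3 CPM in cKO and at 29.0, 33.3 and 28.6 CPM in dcKO, so that cKO replicate 3 was nearly level with Ctrl. Rbl2 had log2 fold changes of 0.31 (cKO, SE 0.192, adjusted p = 0.327 in edgeR) and 0.49 (dcKO, SE 0.192, adjusted p = 0.129). Without dcKO replicate 3 the adjusted p of Rbl2 in dcKO was 0.0285, and without dcKO replicate 2 it was 0.136 at a log2 fold change of 0.42. The lowest cKO embryo with the GC correction described below, at 22.9 CPM, lay within the Ctrl range of 22.0 to 24.1 CPM, and the log2 fold changes were 0.21 and 0.30 (adjusted p = 0.356 and 0.236).

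Rbl1 is itself known as a target of E2F factors, and its upstream window is shown because it was the only one among the 6 genes with an E2F motif. The motif was searched on both strands as TTTCCCGC, TTTCGCGC, TTTGCCGC or TTTGGCGC, and 3.34% of the 12649 windows of tested genes hold at least 1 match. The match begins 18 bases before the start, in chr2:157204535-157204784 on the minus strand of GRCm38.p6, from RefSeq, and capitals mark it.
Rbl1 upstream: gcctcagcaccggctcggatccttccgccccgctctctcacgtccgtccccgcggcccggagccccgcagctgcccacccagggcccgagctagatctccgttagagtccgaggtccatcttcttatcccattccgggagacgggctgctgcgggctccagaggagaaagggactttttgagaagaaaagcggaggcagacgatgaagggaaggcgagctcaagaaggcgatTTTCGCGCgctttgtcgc

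Rbl1 and Cdkn1b were also the members of the 10 whose 3′ UTR holds TGTANATA, the sequence that Pumilio proteins bind. Pumilio proteins are known to bring CCR4-NOT to mRNAs, which is why the sites are shown here, with the motif in capitals. The search ran along the coding strand of the GENCODE transcript (Cdkn1b with a 3′ UTR of 3439 bases, Rbl1 with one of 1613), and the number in each name is the position of the motif from the first base of the 3′ UTR. Of the 5362 tested genes whose 3′ UTR has between 1000 and 4000 bases, 35.1% hold at least 1 such motif, 10.1% at least 2 and 2.76% at least 3. A match in sequence does not show that a site is used.
Cdkn1b 2409: tgtactacctgTGTATATAgtttttatctt
Cdkn1b 3163: aagtgtgcctgTGTATATAactctgtaaag
Rbl1 671: ggagaataaaaTGTAGATAaatgagaaatt
Rbl1 1434: tcttgagtcctTGTACATAtttctgtgtag
Rbl1 1570: ctttgtattaaTGTATATAaaatagttaat

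**Figure D2:**
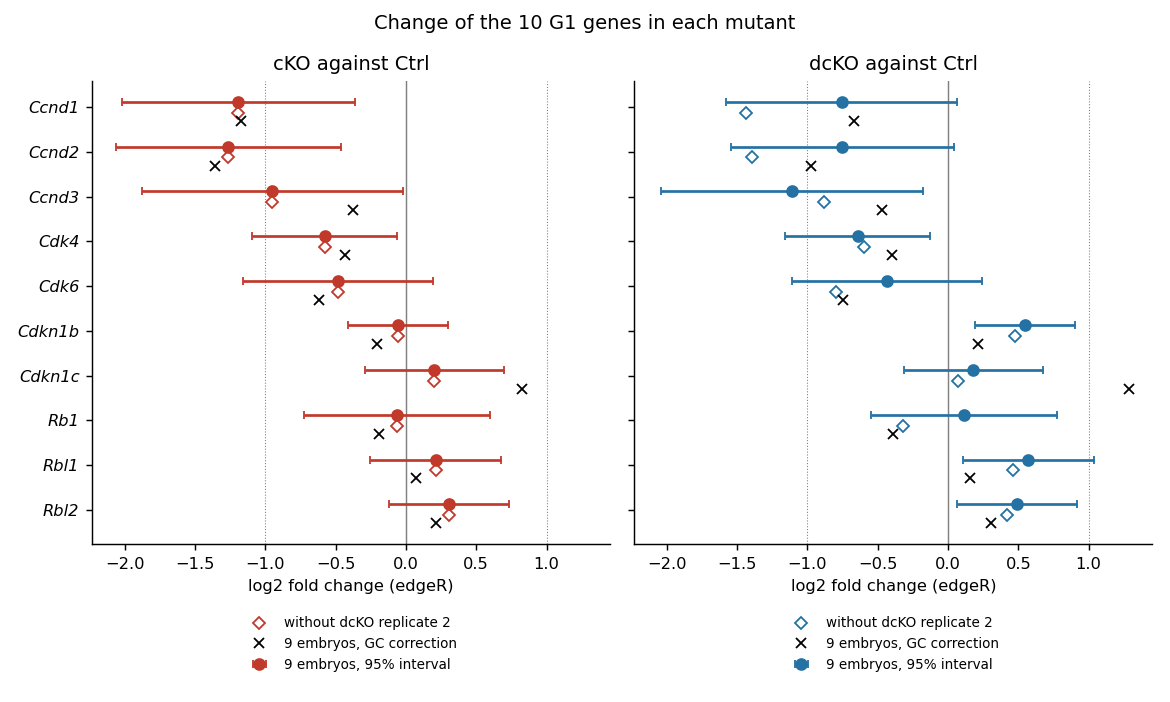
Log2 fold change of each gene (x axis) in cKO and in dcKO against Ctrl. Filled circles with bars give edgeR's value and 95% interval in the model of 9 embryos, open diamonds the value without dcKO replicate 2, and crosses the value after the GC correction; dotted lines mark -1 and 1. Diamonds of Ccnd1 and Ccnd2 in dcKO lie at -1.44 and -1.40, beside their cKO values of -1.19 and -1.26.

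Counted over the 10 genes, 0 were called by edgeR in cKO, that is, had an adjusted p under 0.05 and changed more than 2-fold, where 0.0146% of all tested genes were called. At an unadjusted p under 0.05, 4 of the 10 genes were lower in cKO (Ccnd1, Ccnd2, Ccnd3 and Cdk4), against 11.7% of all tested genes, and 0 were higher, against 15.3%. Ctrl and cKO values did not overlap for the same 4 genes on the low side, against 28% of all tested genes, and for Rbl1 and Rbl2 on the high side, against 29.2%, so that the high count is near the share over all genes. Ccnd1, Ccnd2 and Cdk4 were singled out by the study in these same embryos, so that the count is no independent evidence of their direction. In edgeR on the 6 embryos compared, the 4 genes that were lower (Ccnd1, Ccnd2, Ccnd3 and Cdk4) had an adjusted p under 0.05, against 24.2% of all tested genes on the low side, and 0 were higher, against 24%. With the size limit, 2 of the 10 genes were called there (12.9% of all tested genes), 2 in DESeq2 (8.82%) and 2 in edgeR without dcKO replicate 2 (8.34%), in each case Ccnd1 and Ccnd2. limma voom with sample quality weights called 3 (13.7%), with Ccnd3 as the third.

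In dcKO, edgeR called 0 of the 10 genes and 0% of all tested genes. At an unadjusted p under 0.05, 2 of the 10 genes were lower (Ccnd3 and Cdk4), against 11.2% of all tested genes, and 3 were higher (Cdkn1b, Rbl1 and Rbl2), against 18%. Values did not overlap with Ctrl on the low side for Cdk4 alone, against 11.2% of all tested genes, and on the high side for Cdkn1b and Rbl2, against 15.6%. DESeq2 called 1 of the 10 genes, Ccnd3, against 8.46% of all tested genes, and limma voom called 4, the 3 D cyclins and Cdk4, against 26.8%. Without dcKO replicate 2 edgeR called Ccnd1 and Ccnd2, against 9.72% of all tested genes, and without dcKO replicate 3 it called Ccnd3, against 23.7%. Both mutants were compared with the same 3 Ctrl embryos.

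Between dcKO and cKO, which addresses what the additional loss of Trp53 changed, edgeR called 0 of the 10 genes against 0.0146% of all tested genes, and DESeq2 and limma voom also called 0. Only Cdkn1b had an unadjusted p under 0.05, on the high side, against 2.05% of all tested genes, and 0 were lower, against 2.38%. Only Cdkn1b had values that did not overlap, against 2.62% of all tested genes on the high side. Without dcKO replicate 3, the log2 difference in edgeR was 0.63 for Cdkn1b, 0.57 for Rbl1 and -0.92 for Ccnd3 (adjusted p = 0.0182, 0.0151 and 0.0202). That fit leaves out the dcKO embryo in the Ctrl range for Ccnd3 and Rbl1. Without dcKO replicate 2 the values were 0.53, 0.25 and 0.069 (adjusted p = 0.816, 0.999 and 0.999). Over all embryos the log2 difference was 0.44 for Ccnd1 (95% interval -0.38 to 1.26) and 0.51 for Ccnd2 (-0.28 to 1.30), and without dcKO replicate 2 it was -0.25 and -0.14. Both intervals reach past 1, a difference of 2-fold, so that the mutants were neither shown to differ nor shown to be alike.

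The numbers in the embryo codes of the labels, whose meaning is not stated, are shared by 3 pairs of a Ctrl and a mutant embryo. The deviations of these pairs from their group means correlated at 0.22, -0.016 and -0.58, which does not show that a number pairs the embryos. Between the Ctrl and cKO embryos of a number the log2 ratio of Ccnd2 was -1.52 and -1.12, that of Ccnd1 -1.15 and -1.23, that of Ccnd3 -0.96 and -1.01, and that of Cdk4 -0.59 and -0.61. All 4 genes were lower in the cKO embryo of both pairs. Between Ctrl replicate 3 and dcKO replicate 3, which share a number, the log2 ratio was -1.41 for Ccnd2, -1.20 for Ccnd1, 0.69 for Cdkn1b, -0.14 for Cdk4 and 0.12 for Ccnd3. Ccnd3 and Cdk4 were near the control level there, and 1 such pair gives no spread.

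Relations between the classes were then taken within each library, as sums of CPM per kb of exon, which gives values with no test. The D cyclins together amounted to 8.32, 9.57 and 11.8 times the sum of Cdkn1b and Cdkn1c in Ctrl, to 4.58, 3.25 and 4.005 times in cKO and to 2.83, 6.68 and 3.20 times in dcKO. All 6 mutants lay below all Ctrl embryos, dcKO replicate 2 included. Set against the pocket proteins, the D cyclins amounted to 15.99, 14.9 and 15.2 times in Ctrl, to 6.33, 5.42 and 5.95 times in cKO and to 3.86, 9.31 and 6.82 times in dcKO, again with no overlap between mutants and Ctrl. The sum of Cdk4 and Cdk6 lay between 8.69 and 12.005 times that of the inhibitors in Ctrl, between 6.08 and 7.26 times in cKO and between 3.74 and 7.34 times in dcKO.

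The D cyclins were also low relative to their kinases in cKO. In Ctrl they amounted to 0.940 ± 0.0551 (SD, n = 3) times the sum of Cdk4 and Cdk6, compared with 0.592 ± 0.0515 times for cKO and 0.918 ± 0.580 times for dcKO, where replicate 2 set the mean. The dcKO embryos stood at 0.758, 1.56 and 0.435, so that replicates 1 and 3 lay below the Ctrl range of 0.879 to 0.985 and replicate 2 above it. After the GC correction the ratio was 0.580, 1.10 and 0.534 in dcKO against 1.04 to 1.14 in Ctrl. As counted, the make-up of the D cyclins overlapped between genotypes, and Ccnd2 made up 83.4% ± 1.08 of their sum in Ctrl, 82.1% ± 3.67 in cKO and 83.6% ± 3.68 in dcKO. Ccnd1 made up 13.7% ± 0.557, 14.3% ± 2.72 and 13.5% ± 1.59. With the GC correction the Ccnd2 share was lower without overlap in both mutants, at 81.9% ± 3.04 in cKO and 82.4% ± 1.01 in dcKO against 85.2% ± 0.560 in Ctrl, and the Ccnd3 share was 3.78% ± 0.648 in cKO against 1.97% ± 0.0414 in Ctrl, again without overlap. Rb1 made up 34.2% ± 0.434 of the pocket proteins in Ctrl, 29.8% ± 2.01 in cKO and 26.8% ± 6.11 in dcKO, and the dcKO share overlapped with Ctrl when reads were not divided by length.

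**Figure D3:**
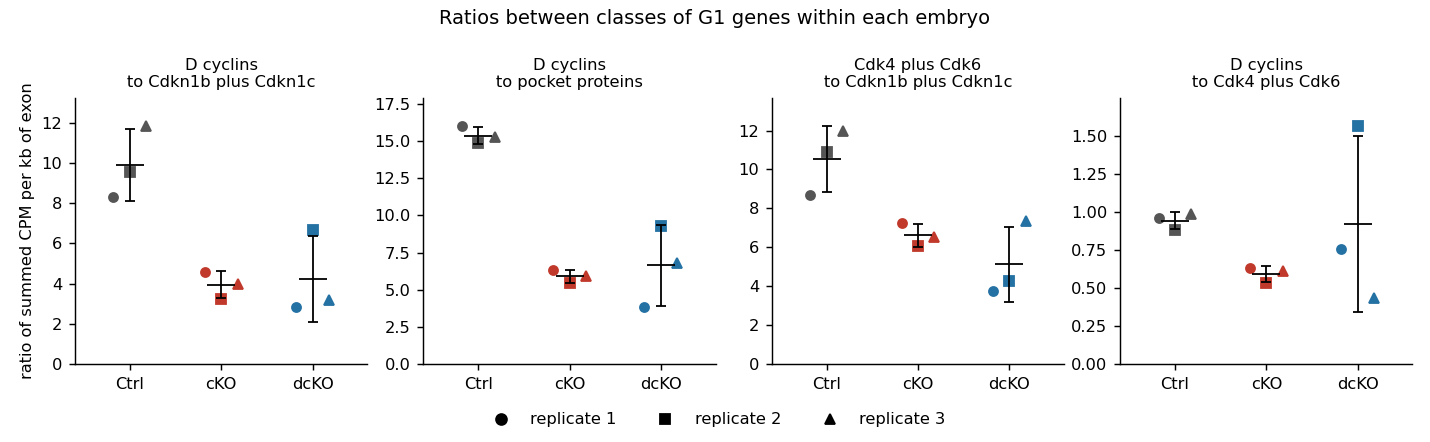
Ratios of summed CPM per kb of exon between classes of genes within each embryo (y axis from 0), by genotype; circles, squares and triangles are replicates 1, 2 and 3 and black bars the mean ± SD (n = 3). D cyclins relative to the inhibitors and to the pocket proteins, and the kinases relative to the inhibitors, are lower in all 6 mutants than in any Ctrl embryo, while D cyclins relative to their kinases span 0.435 to 1.56 in dcKO.

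Across the 9 embryos, the closest correlations among the 10 genes joined 5 of them. Ccnd1 and Ccnd2 ran together (Pearson's r of log2 CPM = 0.96 over 9 embryos), with dcKO replicate 2 at the Ctrl level. Ccnd3 and Cdk4 ran together as well (r = 0.95), with dcKO replicate 3 nearest to Ctrl, and Rbl1 ran opposite to Ccnd3 (r = -0.92). Cdkn1b and Cdkn1c reached at most 0.63 and 0.45 with any other of the 10 genes. The points share genotype and library, so these values are descriptions. Of all tested genes the 3 most like Ccnd1 were Atf4 (r = 0.996), Arl2bp (0.984) and Tspan5 (0.983). Atf4, the transcription factor of the integrated stress response, stood at 143, 131 and 139 CPM in Ctrl, at 81.6, 84.7 and 80.3 CPM in cKO and at 65.3, 145 and 86.0 CPM in dcKO. The 3 most like Ccnd2 were Clic4 (0.998), Stmn1 (0.994) and Cmtm4 (0.993), and the 3 most like Cdk4 were Sdhb (0.998), Gm6139 (0.998) and Tuba1b (0.997).

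Over all tested genes, levels by transcript GC content set dcKO replicate 3 apart from replicates 1 and 2, as did Ccnd3, Cdk4 and Rbl1. When 13561 tested genes were split by GC content into 5 bins of equal size, the median log2 level relative to the Ctrl mean in the bin of highest GC was -1.12 and -1.20 in dcKO replicates 1 and 2 but 0.18 in dcKO replicate 3. In the cKO embryos it spanned -0.56 to -0.32, and in the Ctrl embryos -0.25 to 0.19. Ccnd3 and Cdkn1c have GC-rich transcripts (58.4% and 59.0%, at the 90.8 and 92.6 percentile of tested coding genes), and those of Rb1, Rbl1 and Cdkn1b are GC-poor (41.2%, 42.1% and 43.1%, at the 7.62, 10.3 and 13.9 percentile). Ccnd1, Ccnd2, Cdk4, Cdk6 and Rbl2 lay between the 23 and 66.1 percentile. At the third codon position, the 3 D cyclins and Cdkn1c were GC-rich (73.0% to 80.3%, at or above the 89.1 percentile), whereas Rb1, Rbl1 and Rbl2 had 40.2% to 49.1%, at or below the 20.6 percentile. Whether GC content reflects the libraries or the transcripts' own behaviour in the mutants was not tested.

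After a loess correction for transcript GC content Ccnd1 and Ccnd2 were still low in cKO, and the values of several other members changed. Ccnd2 stood between 2860 and 3014 CPM in Ctrl, between 1003 and 1241 CPM in cKO and at 917, 2404 and 1173 CPM in dcKO, so that even dcKO replicate 2 lay below Ctrl. The log2 fold change was then -1.36 in cKO, with an adjusted p of 0.0271 in edgeR, and Ccnd2 was called, against 5.75% of the genes tested in this way. Ccnd1 had -1.17 in cKO with an adjusted p of 0.0543. In dcKO its corrected levels were 73.2, 252 and 94.9 CPM against 205 to 239 CPM in Ctrl, so that replicate 2 lay above every Ctrl embryo, and the log2 fold change was -0.67 with an adjusted p of 0.247. The log2 fold change of Ccnd3 shrank to -0.38 in cKO and -0.47 in dcKO, yet its corrected levels separated fully, at 62.0 to 66.3 CPM in Ctrl, 43.0 to 52.5 in cKO and 39.2 to 50.0 in dcKO. Cdk4 separated fully as well, at 1062 to 1113 CPM in Ctrl, 789 to 824 in cKO and 650.0 to 919 in dcKO.

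For Cdkn1c the correction moved the mutants upward. Its corrected level was 22.7 to 25.3 CPM in Ctrl, 39.2 to 44.9 CPM in cKO and 70.2, 84.7 and 22.0 CPM in dcKO replicates 1, 2 and 3, with log2 fold changes of 0.82 in cKO (adjusted p = 0.133 in edgeR) and 1.29 in dcKO (adjusted p = 0.0645). In edgeR on the 6 Ctrl and cKO embryos with the correction the adjusted p of Cdkn1c was 6.51e-05. The dcKO values of Rbl1 came down to 102, 82.1 and 91.2 CPM against 81.3 to 83.2 CPM in Ctrl. Rb1 turned to a log2 fold change of -0.39 in dcKO (adjusted p = 0.119), with 36.9, 48.7 and 36.2 CPM against 51.5 to 55.2 CPM in Ctrl. In total 6 of the 10 genes then lay below the Ctrl range in cKO (24.6% of all genes so tested), namely the 3 D cyclins, Cdk4, Cdk6 and Rb1 (43.5 to 50.9 against 51.5 to 55.2 CPM), and 2, Cdkn1c and Rbl1, above it (32.9%). In dcKO 5 lay below it (9.94%), namely Ccnd2, Ccnd3, Cdk4, Cdk6 and Rb1, and Rbl2 above it (15.9%). With the correction edgeR called 0 of the 10 genes in dcKO, against 2.57% of all genes so tested.

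**Figure D4:**
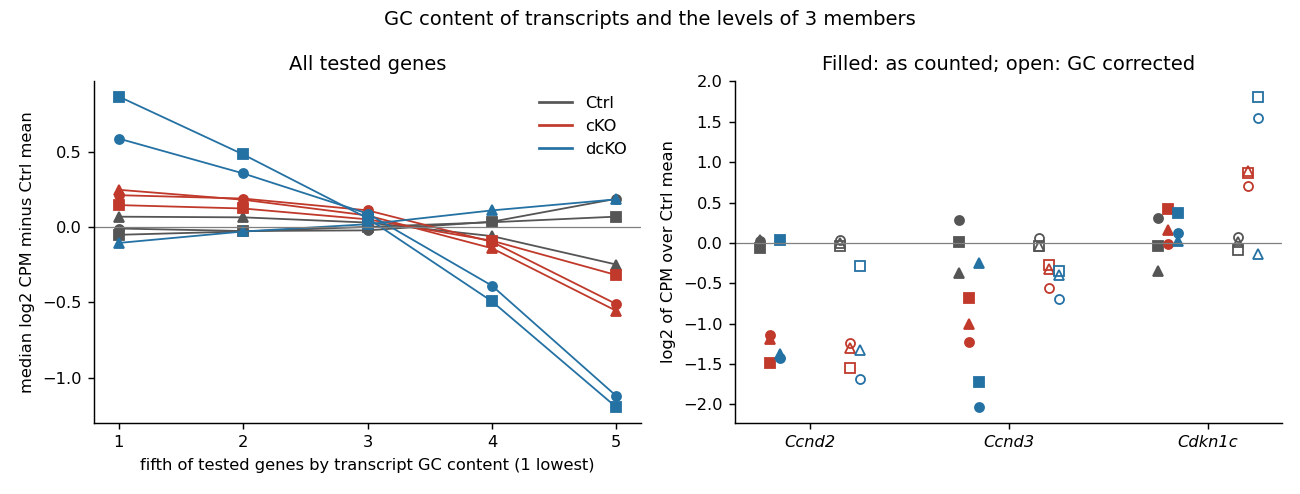
Left, median log2 CPM relative to the Ctrl mean (y axis) in 5 equal bins of 13561 tested genes ordered by transcript GC content (x axis), a line per embryo; right, log2 level over the Ctrl mean for Ccnd2, Ccnd3 and Cdkn1c in each embryo before (filled) and after (open) the GC correction. Circles, squares and triangles are replicates 1, 2 and 3. dcKO replicates 1 and 2 reach -1.12 and -1.20 in the bin of highest GC, where dcKO replicate 3 lies at 0.18.

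The other genes of the pathway were read from lists of its parts, by the same edgeR test and with no gene called in any list. In cKO 11.7% of all tested genes were lower and 15.3% higher at an unadjusted p under 0.05, and in dcKO 11.2% and 18%, and each list is read against these shares. Among 10 E2F and DP factors, some of which the pocket proteins hold in check, 5 were lower and 0 higher in cKO at an unadjusted p under 0.05, and 4 were lower and 1 higher in dcKO. E2f8, which acts without pocket proteins and is named after its value was seen, was among the 5. Without dcKO replicate 2, 6 of the 10 were lower in dcKO (13.6% of all tested genes), and with the GC correction 2 were (9.14%). The list's median log2 fold change was -0.52 in cKO and -0.32 in dcKO, beside 0.01 and 0.11 over all tested genes. E2f1, an activator of S phase genes, stood at 57.7, 51.8 and 46.2 CPM in Ctrl, at 23.9, 18.6 and 18.9 CPM in cKO and at 12.8, 23.1 and 24.3 CPM in dcKO. Its 6 mutant values all lay below Ctrl, also in dcKO replicate 2, and its log2 fold changes were -1.34 (cKO, adjusted p = 0.0509) and -1.37 (dcKO, adjusted p = 0.0502). DESeq2 gave E2f1 adjusted p of 0.000208 and 0.000127, and edgeR without dcKO replicate 2 gave 0.0111 and 0.0114. E2f2 had -1.24 (adjusted p = 0.0509) and -0.98 (adjusted p = 0.0540), and Tfdp1, which encodes the partner DP1, -0.56 (adjusted p = 0.0882) and -0.57 (adjusted p = 0.0793). In DESeq2 the adjusted p was 0.000417 and 0.00490 for E2f2 and 0.0400 and 0.0290 for Tfdp1. The GC correction brought E2f1 to -0.82 in cKO and -0.54 in dcKO (adjusted p = 0.0819 and 0.258) and E2f2 to -0.85 and -0.26 (adjusted p = 0.101 and 0.637). Tfdp1 then had -0.70 and -0.84 (adjusted p = 0.0279 and 0.0378).

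Of 13 E2F targets of S phase entry, 3 were lower in cKO and 2 in dcKO at an unadjusted p under 0.05 and 0 were higher in either, and the median was -0.16 and -0.07. The dcKO count is near the share over all genes. Mcm2, a subunit of the replicative helicase, had -0.69 (cKO, adjusted p = 0.118) and -0.65 (dcKO, adjusted p = 0.121), and with the GC correction -0.39 and -0.21 (adjusted p = 0.0827 and 0.354). Tyms and Tk1, which supply thymidylate, stood at log2 fold changes of -0.45 and -0.96 (cKO, adjusted p of 0.174 and 0.185). The GC correction gave -0.54 and -0.66 there (adjusted p = 0.0358 and 0.0736). In dcKO Tk1 had -1.04 (adjusted p = 0.146), with replicate 3 within the Ctrl range at 117 CPM. Of the MuvB and B-Myb list 5 genes were tested, and Lin54 was not analysed here. B-Myb itself (Mybl2) had -0.78 for cKO and -0.92 for dcKO (adjusted p = 0.0992 and 0.0660) and with the GC correction -0.42 and -0.39 (adjusted p = 0.0810 and 0.132), while the list's median was -0.07 and 0.26. The latter was 0.0020 without dcKO replicate 2 and -0.05 with the GC correction.

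Of 8 genes of cyclin E-CDK2 and the CDK activators, 0 were lower in either mutant as counted, and 2 were higher in cKO and 3 in dcKO at an unadjusted p under 0.05, with medians of 0.20 and 0.51. Leaving out dcKO replicate 2 made 1 lower in cKO and 2 in dcKO (13.6% of all genes were so there), among them Cdc25a in dcKO at -0.75 (adjusted p = 0.00949), and the GC correction made 1 lower in each mutant. The dcKO median was 0.16 without dcKO replicate 2 and 0.12 with the GC correction. Cdc25a and Cdk2 lay below Ctrl in all 3 cKO embryos all the same, with log2 fold changes of -0.54 and -0.24 (adjusted p = 0.261 and 0.365, and 0.000773 and 0.0457 in edgeR on the 6 embryos compared), and were named after their values were seen. Cdk7 had log2 fold changes of 0.93 in cKO (adjusted p = 0.0514) and 0.94 in dcKO (adjusted p = 0.0507), Mnat1 0.85 and 0.78 (adjusted p = 0.0514 and 0.0537), and Ccnh 0.80 in dcKO (adjusted p = 0.0692). In dcKO the GC correction brought these to 0.64, 0.45 and 0.40 (adjusted p = 0.114, 0.232 and 0.0647), and without dcKO replicate 2 they were 1.11, 0.92 and 0.59 (adjusted p = 0.00568, 0.0101 and 0.0862). Cdk7 stood at 31.1, 25.7 and 26.9 CPM in Ctrl and between 39.7 and 68.2 CPM in the 6 mutants, with no overlap.

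Of 5 other CDK inhibitors, Cdkn2a and Cdkn2b had at most 7 reads in any library and were not tested. Cdkn1a, which encodes p21 and is a target of p53, stood at 16.7, 17.3 and 16.6 CPM in Ctrl, at 86.6, 124 and 68.1 CPM in cKO and at 27.9, 8.99 and 21.5 CPM in dcKO. All cKO embryos lay far above Ctrl, and dcKO embryos lay on both sides of it. It had a log2 fold change of 2.46 in cKO (adjusted p = 0.0509 in edgeR, 2.49e-07 in DESeq2) and of 0.21 in dcKO (adjusted p = 0.729). The dcKO value was 0.55 without replicate 2, the embryo with the lowest level (adjusted p = 0.148), and with the GC correction it was 0.58 (adjusted p = 0.278). Cdkn2c, which encodes p18, had -1.36 in cKO (adjusted p = 0.0702) and -0.81 with the GC correction (adjusted p = 0.270), and the list's median was -0.58 in cKO and -0.46 in dcKO over 3 genes. With the GC correction the median was -0.25 in cKO and turned to 0.46 in dcKO.

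Among 12 genes of cyclin D and p27 turnover, 1 was lower and 2 were higher at an unadjusted p under 0.05 in cKO and likewise in dcKO. These counts are near the shares over all genes (11.7% and 15.3% in cKO, 11.2% and 18% in dcKO). The list's medians were -0.14 and 0.06. When dcKO replicate 2 was left out, 3 were lower and 3 higher in cKO (16.4% and 20.1% of all genes) and 2 lower and 3 higher in dcKO, and with the GC correction 3 were lower in cKO (13.7% of all genes). Its dcKO median without that embryo was -0.12, and with the GC correction it was -0.023. The lower gene as counted was Cks1b, which SKP2 needs to mark p27 for degradation, at 132, 139 and 129 CPM in Ctrl, 73.3, 77.6 and 72.5 CPM in cKO and 54.1, 78.9 and 93.7 CPM in dcKO. Cks1b had log2 fold changes of -0.84 (cKO, adjusted p = 0.0521) and -0.82 (dcKO, adjusted p = 0.0519), and after the GC correction of -0.88 and -0.87 (adjusted p = 0.0266 and 0.0380). The higher genes were Fbxo4, an F-box protein, with 1.24 and 1.42 (adjusted p = 0.0874 and 0.0631), and Cul1, the scaffold of SCF ligases, with 0.52 and 0.62 (adjusted p = 0.121 and 0.0759), which the GC correction brought to 0.37 and 0.27 (adjusted p = 0.0536 and 0.154). Fbxo4 is a gene of low level here, with 1.39 to 2.49 CPM in Ctrl and 3.47 to 7.996 CPM in the mutants.

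**Figure D5:**
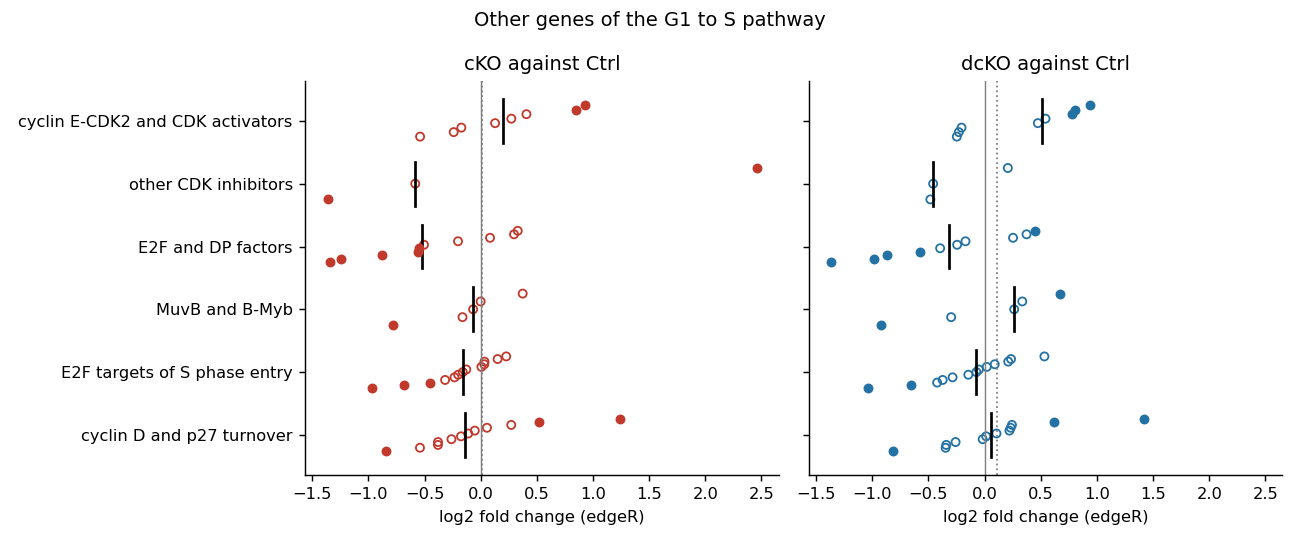
Log2 fold change (x axis) of every tested gene in 6 lists of the G1 to S pathway, in cKO and in dcKO against Ctrl. Filled points have an unadjusted p under 0.05 in edgeR, open points do not, black bars mark each list's median and the dotted line the median of all tested genes. The E2F and DP factors have the most filled points on the low side, 5 in cKO and 4 in dcKO, and Cdkn1a stands at 2.46 in cKO.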

How the data were processed

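RNA was sequenced from the cortex of single E12.5 embryos, 3 per genotype. The table the authors deposited gives raw counts of reads per gene from featureCounts, for 57010 genes, with no normalization or filter, and 30138 of them had no read. Per the labels and the study's methods, the libraries were stranded, poly(A)-selected and paired-end, cutadapt removed adapters, and STAR mapped the reads to mm39. Tests used R 4.3.3. Differences were estimated by edgeR 4.0.16 with TMM factors and its quasi-likelihood test, with all 9 embryos in a single model and no covariate, for the 13680 genes that exceeded 10 reads in each embryo. A gene was called where the Benjamini-Hochberg adjusted p lay under 0.05 and the log2 fold change exceeded 1 in size. All adjusted p-values are over all genes tested, intervals cover 95%, and SE is edgeR's log2 fold change divided by its test statistic's root. The 10 genes, the lists and the tests were chosen with earlier results of these data known.

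Alternatives were RLE factors, DESeq2 1.42.0, limma 3.58.1 voom with sample quality weights, every gene with a read, the 6 embryos compared, each embryo left out, the replicate number as a block, the embryo code number as a block, and a loess correction (span 0.3) for the GC content of transcripts. The GC correction on the 6 embryos compared, the same without dcKO replicate 2, GC-corrected class ratios, and the pathway lists with the GC correction and without dcKO replicate 2 were chosen after seeing the data. The fits were also run on simulated data, of which no result is given here. Coordinates, exon lengths, GC content and 3′ UTRs came from GENCODE M21 on GRCm38, not from the authors' build, and 52081 identifiers matched. CPM values use TMM factors, and correlations use log2 CPM with a pseudocount of 0.5. Figures and ratios were made with Python 3.11.15 (NumPy 2.4.6, pandas 2.3.3). Beyond the 10 genes, the text names Cnot3 and Trp53. In each pathway list it names up to 3 genes with the smallest p among those with an unadjusted p under 0.05 and groups that did not overlap, in each mutant. It also names the 3 genes most like each of Ccnd1, Ccnd2 and Cdk4, and single markers where a list's level is shown. E2f8, Cdc25a and Cdk2 fall outside this rule and were named after their values were seen.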

Additional observations from a re-analysis of the deposited data

How the results depend on the processing

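Counts of calls depended on the fit. Over all genes, in cKO against Ctrl, dcKO against Ctrl and dcKO against cKO, edgeR called 2, 0 and 2 genes with TMM as with RLE factors, DESeq2 1206, 1157 and 52, limma voom 1868, 3668 and 27, edgeR on every gene with a read 813, 692 and 8, and edgeR on the 6 embryos compared 1758, 0 and 0. The GC correction gave 780, 349 and 9, on the 6 embryos compared 1385, 0 and 3, and without dcKO replicate 2 1307, 1569 and 11. The embryo code number as a block gave 1986, 1633 and 1583. Leaving out 1 embryo gave 0 to 1473, 0 to 3245 and 0 to 1236, with 919, 0 and 0 without dcKO replicate 1, 1141, 1330 and 4 without dcKO replicate 2, and 1473, 3245 and 1236 without dcKO replicate 3. In cKO against Ctrl it gave 0 without any 1 of the Ctrl or cKO embryos.

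Of the 10 genes, DESeq2 called 2, 1 and 0, limma voom 3, 4 and 0, and every gene with a read 2, 0 and 0. The 6 embryos called 2, 0 and 0, and with the GC correction also 2, 0 and 0. The GC correction called 1, 0 and 0, and without dcKO replicate 2 it called 2, 2 and 0. Leaving out 1 embryo gave 0 to 2, 0 to 2 and 0. RLE factors called 0 in each comparison.

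These signs turned, on the log2 scale. Rb1 in dcKO against Ctrl was -0.39 with the GC correction, -0.40 with it and the replicate block, -0.75 with the code number block, -0.44 with the GC correction on 6 embryos, -0.54 with it and without dcKO replicate 2, and -0.32 to 0.40 with 1 embryo left out. With the code number block, which rests on 1 pair of dcKO and Ctrl embryos, Ccnd3 in dcKO was 0.12 and Rbl1 -0.00051. Cdkn1b in cKO was 0.070 without Ctrl replicate 1 and spanned -0.15 to 0.07 with 1 embryo left out. Between dcKO and cKO only Ccnd1, Ccnd2 and Cdkn1b were followed under every alternative, and others near 0 turned too, such as Rb1 from 0.17 to -0.26 without dcKO replicate 2. Ccnd1 was -0.30 in limma voom, -0.0084 with the code number block, -0.24 with the GC correction without dcKO replicate 2 and -0.25 to 0.75 with 1 embryo left out, and Ccnd2 was -0.067 in limma voom, -0.097 with the code number block and -0.14 to 0.76 with 1 embryo left out, with -0.14 for the GC correction without dcKO replicate 2. The cause of these changes was not tested. Of the log2 fold changes of the 10 genes recomputed in cKO against Ctrl, 177 kept their direction and side of the threshold, 22 passed it only under the alternative and 1 turned. In dcKO against Ctrl these numbers were 180, 12 and 8.

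The replicate number as a block called 0, 0 and 0 of all genes and 0 of the 10 genes, and with the GC correction 6, 0 and 6 of all genes and 0 of the 10. Same-numbered embryos are different animals, and their deviations from the group means correlated at -0.58 to 0.15 (mean -0.18, 9 pairs). For embryos of other numbers the values were -0.28 to 0.45 (mean 0.09, 18 pairs). These ranges overlap and do not show that the numbers pair the embryos. With 3 embryos per genotype, a single gene's exact test cannot go below 0.1.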
